A study of Mus musculus with 27 samples.

Results

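The Id genes (inhibitor of DNA binding) encode small helix-loop-helix proteins, and the mouse family has 4 members, Id1, Id2, Id3 and Id4. The 4 genes were found by symbol, each in 1 row, among 23295 genes in the expression table of the parental cells and 24247 genes in that of the shRNA cells. The cells were NMuMG, an established line of normal mouse mammary gland epithelium, in which TGF-β at 1 to 5 ng/ml starts an epithelial-to-mesenchymal transition (EMT), the loss of epithelial features and the gain of mesenchymal ones. RNA-seq was made from 9 groups of 2 biological replicates: parental cells, cells with an irrelevant shRNA (control) and cells with an shRNA against lamin B1 (KD), each without TGF-β (untreated) and after 8 h and 24 h of it. Parental cells also gave ATAC-seq, which finds open chromatin, and ChIP-seq of lamin B1, with 1 library per time point, so peaks had no replicates. Every group is the same cell line in the same insulin-containing medium, and neither how many shRNA sequences nor how many clones stand behind the control and KD cells is given in the sources used here.

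Basic helix-loop-helix (bHLH) factors bind DNA as dimers, most often of a tissue-restricted factor with a widely expressed E protein such as Tcf3, Tcf4 or Tcf12. Id proteins have the helix-loop-helix but lack the basic region that touches DNA, so an E protein paired with an Id protein cannot bind. Id1, Id2 and Id3 are classical direct targets of bone morphogenetic proteins (BMPs), which act through Smad1 and Smad5 with Smad4, whereas in epithelial cells TGF-β is known for lowering Id genes through Smad3 with partners such as Atf3. In mammary epithelium Id1 is known for holding back differentiation.

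The proximal promoters of Id2 and Id4 and a short stretch of that of Id3 are shown because the Smad-type letters discussed for this family can be seen in them. The sequences were taken from RefSeq (GRCm38.p6) as the bases just before the RefSeq start, on the gene's strand, and each occurred once, letter for letter, in mm9. In Id2 and Id4 capitals mark GGCGCC, the GC-rich element known to be bound by Smad1 and Smad5 in Id promoters, and GTCT or its reverse AGAC, the Smad box. In Id3 capitals mark the reverse of TGACG, the core of the site of ATF and CREB factors, running into a Smad box with which it shares 1 base. The RefSeq start of Id3 lies inside the first exon of the GENCODE annotation used for the coordinates, so 30 bases are printed. The RefSeq start of Id4 lies upstream of the GENCODE one: the printed bases end at 48356484 and the GENCODE start is at 48356796. Motif positions count from the RefSeq start and peak distances from the GENCODE start.
Id2, chr12:25780958-25781207, minus strand, 250 bases: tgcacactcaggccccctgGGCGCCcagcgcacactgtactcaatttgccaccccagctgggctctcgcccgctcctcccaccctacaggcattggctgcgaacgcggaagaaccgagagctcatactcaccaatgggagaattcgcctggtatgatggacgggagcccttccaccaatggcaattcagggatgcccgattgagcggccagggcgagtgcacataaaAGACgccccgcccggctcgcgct
Id4, chr13:48356235-48356484, plus strand, 250 bases: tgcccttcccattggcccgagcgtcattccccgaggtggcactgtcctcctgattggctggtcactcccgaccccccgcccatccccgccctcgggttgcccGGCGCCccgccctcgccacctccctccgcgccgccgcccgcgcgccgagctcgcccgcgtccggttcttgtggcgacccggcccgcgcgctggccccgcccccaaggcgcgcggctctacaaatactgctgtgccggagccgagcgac
Id3, chr4:135699557-135699586, plus strand, 30 bases: ctgtcctcggCGTCAGACcagcctaaggaa

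GGCGCC was found once in Id2, at positions -231 to -226 before the start, once in Id4, at -148 to -143, and not in the 250 bases of Id3. Over 32851 RefSeq promoters of the same length, 9.59% held it on either strand. The Smad box GTCT occurred once in Id2, at -23 to -20, and 2 times in Id3, at -166 to -163 and -68 to -65, but 82.9% of all promoters hold these 4 letters. TGACG was found once in Id3 and once in Id4, against 17.8% of promoters, and the full palindrome TGACGTCA in none of the 3 (1.55%). The E-box CANNTG, which bHLH dimers bind, occurred once in Id2 and was not found in Id3 or Id4 (66.2%). GGGCGG, the GC box of Sp1-type factors, occurred once in Id2, 2 times in Id3 and 5 times in Id4 (32.7%). The paired Smad box GTCTAGAC (0.167%), the E2A-type E-box CAGGTG (17.2%) and TATAAA (12.4%) were found in none of the 3. The GC content was 62.8% in Id2, 62.8% in Id3 and 75.6% in Id4, against a median of 52.4% over all promoters. The Id1 entry was not used. A match of letters is a description of these windows only.

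Expression is given in FPKM, fragments scaled to transcript length and library total, which allows levels of different genes to be set side by side. The 10 highest genes took 25.0 to 34.1% of the summed FPKM of a parental library and 11.4 to 40.4% of a shRNA library, and replicates correlated at r = 0.983 to 0.994 across genes on log2(FPKM + 1). Lmnb1, the gene targeted by the shRNA, was at 29.2 and 36.5 FPKM in untreated control cells and at 9.01 and 9.27 in untreated KD cells. The KD mean was 27.8% of control without TGF-β, 24.6% after 8 h and 32.8% after 24 h (log2 change -1.73, -1.90 and -1.50, with adjusted p = 0.00057, 0.00019 and 0.00090). In at least 2 libraries 5 of 8 epithelial markers reached 1 FPKM in parental cells and 6 in shRNA cells, led by Krt8 and Krt18, and Cldn3 and Cldn7 stayed below 1 FPKM in every library. Krt19 went from 993 to 432 and 62.3 FPKM and Cdh1 from 116 to 89.6 and 40.3 FPKM in parental cells. The list was split there: Krt8, Krt18 and Cldn4 were called higher at 8 h, and Krt18 and Cldn4 at 24 h. The tested epithelial markers had a median log2 change of 0.20 at 8 h and 0.07 at 24 h. Cdh1 and Epcam were higher in KD than in control cells at 8 h (0.68 and 0.60, adjusted p = 0.0017 and 0.00073) and at 24 h (0.94 and 0.52, adjusted p = 0.00066 and 0.0021). Krt18 and Cldn4 were called lower in KD cells at 8 h, and no epithelial marker was called lower at 24 h. The median of the tested list was 0.04 at 8 h and 0.34 at 24 h. The 4 endothelial markers stayed below 1 FPKM in every library, with a summed level of 0.0132 to 1.66 FPKM. Summed leukocyte markers were at 1.32 to 2.80 FPKM, with Cd68 the highest in each group, Csf1r rising to 1.02 FPKM in 1 control library at 24 h, and Ptprc and Cd3e below 1 FPKM throughout. Fabp4 was the one adipocyte marker to reach 1 FPKM, in parental cells, where the list summed to 4.61 to 5.87 FPKM (0 to 0.203 in shRNA cells). Krt14 was the one myoepithelial marker of 4 to reach 1 FPKM, and the summed list was highest at 8 h, at 4.66 to 6.12 FPKM in parental, 27.5 to 27.6 in control and 24.1 to 29.8 in KD cells, the time at which Id2 and Id3 were low. The part of these markers in the Id values was not tested.

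Id1, Id2 and Id3 were strongly expressed in every untreated line and all 3 fell within 8 h of TGF-β, while Id4 stayed near 0. After 8 h the genes took separate courses: Id1 went on falling to 24 h, Id2 stayed low, and Id3 climbed back. Untreated parental cells held 239 ± 25.6 FPKM of Id1, 221 ± 4.71 of Id2 and 80.0 ± 9.69 of Id3 (SD, n = 2). The values of Id1 and Id2 overlapped there, so their order could not be told, and both were above Id3. In untreated control and KD cells Id2 led without overlap, followed by Id1 and Id3. At 8 h Id1 was highest in all 3 lines. At 24 h Id3 led in parental cells, Id1 and Id3 overlapped at the top in control cells, and Id2 and Id1 overlapped at the top in KD cells.

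**Figure D1:**
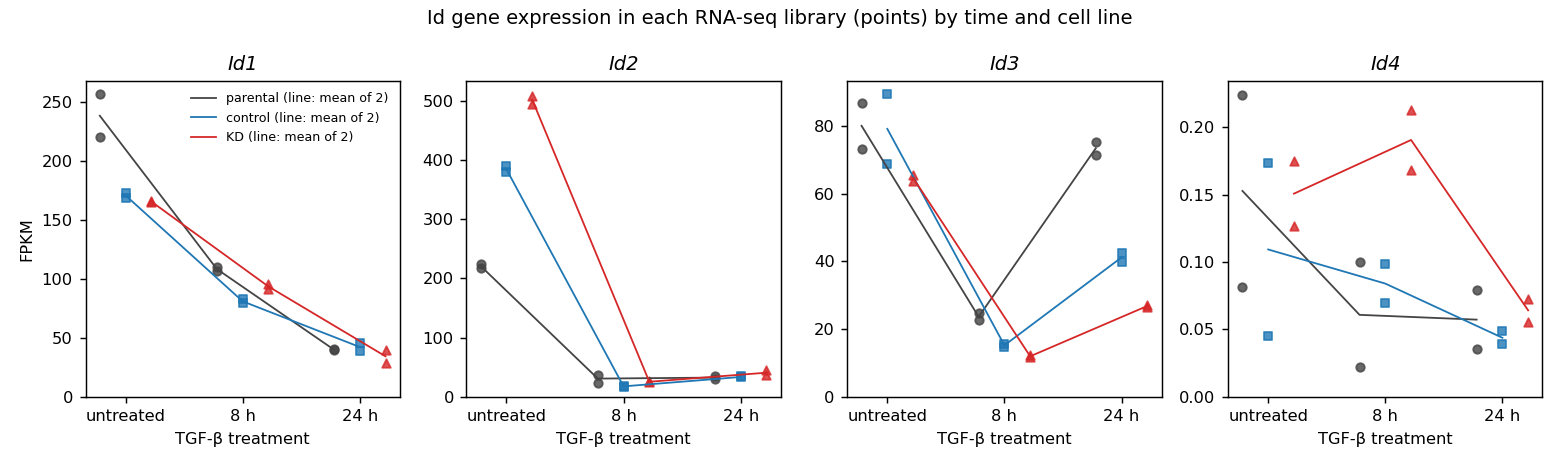
FPKM of Id1, Id2, Id3 and Id4 (y axis, a scale for each gene) against TGF-β time, with each RNA-seq library as a point and lines joining the means of the 2 replicates in parental, control and KD cells. Id1 descends at each step, Id2 drops from at least 218 FPKM to at most 45.1, Id3 falls at 8 h and rises by 24 h, and Id4 never passes 0.224.

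Id1 stood at 257 and 220.4 FPKM in untreated parental cells, at 107 and 110.3 after 8 h and at 39.3 and 40.7 after 24 h. The 3 times did not overlap, and each step was downward. In control cells Id1 read 173 and 169 untreated, 79.3 and 82.7 at 8 h, and 45.6 and 38.9 at 24 h, and in KD cells 165 and 166, 91.3 and 95.9, and 40.0 and 28.7. The same descent without overlap was therefore seen in all 3 lines, to 45.4% of the untreated mean at 8 h in parental cells, 47.4% in control and 56.5% in KD cells, and to 16.8%, 24.7% and 20.7% at 24 h. The log2 change at 8 h was -1.13 ± 0.07 (SE) in parental (adjusted p = 5.0e-05), -1.07 ± 0.13 in control (adjusted p = 0.00011) and -0.82 ± 0.13 in KD cells (adjusted p = 0.00048). From 8 h to 24 h Id1 fell further, by 1.42 on the log2 scale in parental (adjusted p = 1.4e-05), 0.93 in control (adjusted p = 0.00047) and 1.44 in KD cells (adjusted p = 3.6e-05).

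Id2 had the deepest fall of the family. In parental cells it read 224 and 218 FPKM untreated, 23.9 and 37.5 at 8 h and 30.2 and 34.6 at 24 h. Both treated groups lay far below the untreated one and overlapped each other. In control cells Id2 began higher, at 389 and 379 FPKM, and went to 17.2 and 18.0 at 8 h before standing at 34.3 and 32.6 at 24 h. In KD cells it began at 509 and 495 FPKM and went to 24.7 and 26.1 at 8 h and 45.1 and 36.3 at 24 h. The mean at 8 h was thus 7.19-fold below untreated in parental, 21.8-fold in control and 19.8-fold in KD cells. The log2 changes at 8 h were -2.84 ± 0.18, -4.37 ± 0.09 and -4.25 ± 0.09, with adjusted p = 5.3e-05, 4.7e-09 and 4.0e-09. Between 8 h and 24 h Id2 rose by 0.89 ± 0.09 on the log2 scale in control (adjusted p = 5.6e-05) and by 0.65 ± 0.09 in KD cells (adjusted p = 0.00031). In parental cells the same step was 0.10 with a 95% interval of -0.32 to 0.53 (adjusted p = 0.65). The 2 parental libraries at 8 h lay further apart, relative to their level, than any other Id2 pair, and the step was 0.42 without the higher of them (adjusted p = 0.0044) and -0.21 without the lower. The parental and shRNA tables were normalized separately, so the larger fall in the shRNA lines was not tested against the parental one.

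Id3 fell and then recovered. In parental cells it read 86.9 and 73.2 FPKM untreated, 22.6 and 24.6 at 8 h, and 71.4 and 75.4 at 24 h. The 24 h values overlapped the untreated ones and lay above both 8 h values. In control cells Id3 went from 89.4 and 68.9 to 15.7 and 14.7 and back to 42.4 and 39.9, and in KD cells from 65.6 and 63.8 to 11.7 and 12.2 and back to 27.0 and 26.6. In these lines the recovery stopped short of the untreated values, with no overlap. At 8 h the mean was 29.5% of untreated in parental, 19.2% in control and 18.5% in KD cells, and the log2 changes were -1.71 ± 0.08, -2.29 ± 0.10 and -2.34 ± 0.10 (adjusted p = 3.3e-05, 2.5e-07 and 1.9e-07). At 24 h the mean stood at 91.7%, 52.0% and 41.5% of untreated. The parental log2 change at 24 h was -0.12 (95% interval -0.32 to 0.08, adjusted p = 0.24), which does not show that the levels were equal. Without the higher untreated library that change was 0.0037 (adjusted p = 0.97), and without the lower one it was -0.24 (adjusted p = 0.026). In control and KD cells it was -0.92 ± 0.10 (adjusted p = 4.0e-05) and -1.24 ± 0.10 (adjusted p = 5.1e-06). The rise from 8 h to 24 h passed the test in all 3 lines, at 1.60 in parental (adjusted p = 1.8e-05), 1.38 in control (adjusted p = 1.2e-05) and 1.10 in KD cells (adjusted p = 3.9e-05).

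Id4 was listed at 0.0219 to 0.224 FPKM in the 6 parental libraries and at 0.0389 to 0.213 in the 12 shRNA libraries. The lowest value of any other member was 11.7 FPKM. Id4 did not pass the filter of at least 1 FPKM in at least 2 libraries and entered no test. No order among its groups can be read at this level. A long non-coding gene on the other strand, A330033J07Rik, overlaps the start of Id4, and whether the counting used strand is not given in the sources used here.

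Of the 3 Id genes that entered the test, all 3 fell at 8 h in parental cells, where 54.5% of 11309 genes tested were called and 32.1% were called lower. At 24 h 2 fell, against 70.5% called and 37.1% lower, and between 8 h and 24 h 2 were called, Id1 lower and Id3 higher, against 51.8% of all genes. In control cells all 3 fell at 8 h (64.3% of 11450 genes called, 44.9% lower) and at 24 h (70.7% called, 45.1% lower), and all 3 were called between 8 h and 24 h (49.7%). The same 3 counts were found in KD cells at 8 h (67.8% called, 44.8% lower), at 24 h (71.9% called, 43.3% lower) and between 8 h and 24 h (51.8% called). With so much of the transcriptome called, being called says little for 3 genes, and the sizes say more. The median size of a called change was 0.34 on the log2 scale in parental cells at 8 h and 0.44 in control cells, below every Id change at that time. The median of all genes was itself shifted to -0.14 at 8 h and -0.13 at 24 h in control cells and to -0.13 and -0.10 in KD cells. Median-of-ratios scaling brought these medians to between -0.02 and 0, and the fall of each Id gene was still called under it and under quantile normalization. Among calls in control cells, 30.2% were higher at 8 h as deposited and 48.2% after that scaling, and 36.1% and 50.7% at 24 h. In KD cells the split was 33.9% and 48.9% at 8 h, and 39.8% and 48.9% at 24 h.

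**Figure D2:**
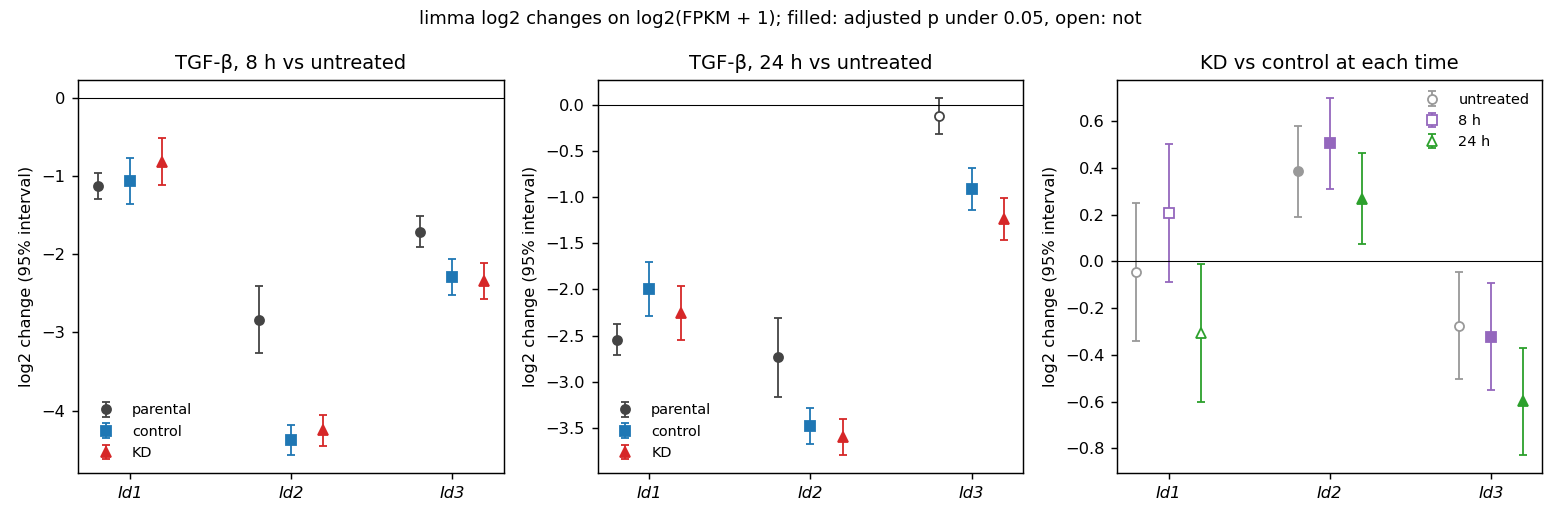
Log2 changes (y axis, with 95% intervals from limma) of Id1, Id2 and Id3 for 8 h and 24 h of TGF-β against untreated in 3 lines, and for KD against control at each time, with filled symbols for adjusted p under 0.05. All 9 changes at 8 h are below 0, parental Id3 at 24 h is -0.12 and open, and in the KD panel Id2 lies above 0 and Id3 below 0 at every time.

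The summed Id level, a sum of FPKM over the 4 genes, went from 540 ± 40.1 FPKM in untreated parental cells to 163 ± 13.7 at 8 h and 146 ± 6.86 at 24 h. It went from 634 ± 24.5 to 114 ± 2.26 and 117 ± 7.85 in control cells, and from 732 ± 9.90 to 131 ± 4.60 and 102 ± 14.5 in KD cells (SD, n = 2). The sum thus stayed at 13.9 to 30.2% of untreated at both times while its make-up turned over. Id2 supplied 39.5 to 42.5% of the sum in untreated parental libraries, 59.7 to 61.4% in control and 68.2 to 68.8% in KD libraries. At 8 h Id1 supplied 63.9 to 71.6% in every library. At 24 h Id3 supplied 50.0 to 50.7% in parental, 34.7 to 35.8% in control and 24.1 to 29.0% in KD libraries, the order of the lines in the Id3 values themselves. In bulk RNA a smaller share of cells with a gene and less RNA per cell cannot be told apart.

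**Figure D3:**
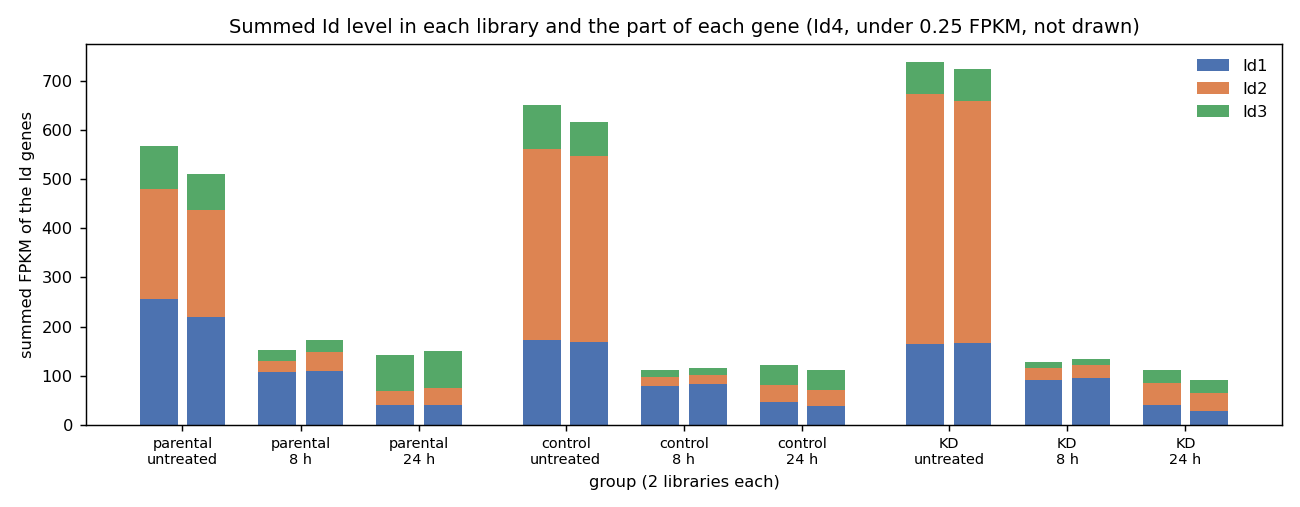
Summed FPKM of Id1, Id2 and Id3 (y axis) in each of the 18 RNA-seq libraries, as stacked bars by line and time. The bars shrink from at least 511 FPKM untreated to at most 173 after TGF-β, with Id1 the main part at 8 h and Id3 the main part in parental cells at 24 h.

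In KD cells Id2 was higher and Id3 lower than in control cells, and Id1 was not called at any time. Id2 in KD cells was 131% of control untreated, 144% at 8 h and 122% at 24 h, with both KD values above both control values at each time. The log2 changes were 0.38 ± 0.09 (adjusted p = 0.017), 0.50 ± 0.09 (adjusted p = 0.0027) and 0.27 ± 0.09 (adjusted p = 0.047). The first lost its call in 3 of its 4 fits without 1 library, and the last lost it in 10 of 12 alternatives, so only the difference at 8 h was called throughout. Id3 in KD cells was 81.7%, 78.6% and 65.2% of control at the 3 times, and every KD value lay below every control value. Its log2 change was -0.28 untreated (95% interval -0.50 to -0.05, adjusted p = 0.089, and -0.46 with adjusted p = 0.0032 without the second untreated control library), -0.32 ± 0.10 at 8 h (adjusted p = 0.035) and -0.60 ± 0.10 at 24 h (adjusted p = 0.0038). The 8 h call was lost without any 1 of the 4 libraries compared, whereas the 24 h call was kept in all 12 alternatives. Id1 differed by -0.04 (95% interval -0.34 to 0.25, adjusted p = 0.85), 0.21 (-0.09 to 0.50, adjusted p = 0.25) and -0.31 (-0.60 to -0.01, adjusted p = 0.11), the last called without the first KD library at 24 h (-0.54, adjusted p = 0.0019). At 8 h both KD values of Id1 lay above both control values, and with only the groups compared that difference was called (adjusted p = 0.0072), whereas at 24 h 1 KD value lay within the control range. Across the 3 times 1, 2 and 2 of the 3 genes were called, against 19.7%, 35.8% and 28.3% of all genes.

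Whether KD changed the response to TGF-β was tested as the difference between the 2 responses. No Id gene was called at 8 h, where 4.06% of all genes were, or at 24 h, where 4.72% were, in the limma fit, and none had an unadjusted p under 0.05. Id3 at 24 h came closest to that limit. The differences at 8 h were 0.25 for Id1 (95% interval -0.17 to 0.67), 0.12 for Id2 (-0.16 to 0.40) and -0.05 for Id3 (-0.37 to 0.28). At 24 h they were -0.26 for Id1 (-0.68 to 0.16), -0.12 for Id2 (-0.39 to 0.16) and -0.32 ± 0.14 for Id3 (adjusted p = 0.21). These intervals leave room for differences of up to 0.68 on the log2 scale. At 24 h calls appeared when single libraries were left out: without the first KD library at 24 h Id1 (-0.49, adjusted p = 0.015) and Id2 (-0.27, adjusted p = 0.025) passed, and without the first untreated control library Id3 did (-0.51, adjusted p = 0.014). The number of all genes called was itself unstable. It went from 465 at 8 h to 1486 without the second untreated control library and to 25 to 333 without another library, and from 540 at 24 h to 2696 without the first KD library at that time, 1415 without the second untreated control library and 85 to 774 without another.

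Among BMP ligands, which raise Id genes, 2 of 10 listed genes were expressed well enough to be tested, Bmp2 and Bmp4. Bmp4 was 7.68 FPKM in untreated parental cells, 2.85 at 8 h and 4.09 at 24 h, a fall of 1.18 and 0.77 on the log2 scale (adjusted p = 0.00021 and 0.00070). Bmp4 also fell in control (-1.65 and -1.16) and KD cells (-1.50 and -1.09). Bmp2 was 1.08, 1.17 and 1.21 FPKM in parental cells with no call, while in control cells it went from 3.26 to 0.92 and 0.79 and was called lower at both times. In KD cells it went from 4.55 to 3.15 and 2.50 FPKM and was called lower at 24 h alone (-0.42, adjusted p = 0.056, and -0.67, adjusted p = 0.0068), so that it was higher than in control at 8 h (1.11, adjusted p = 0.0018) and 24 h (0.96, adjusted p = 0.0049). Bmp4 was higher in KD than in control cells untreated (0.39), at 8 h (0.55) and at 24 h (0.47), with adjusted p = 0.034, 0.0047 and 0.014. Among the Id genes Id2 was higher in KD cells too, whereas Id3 was lower (-0.28, -0.32 and -0.60) and Id1 was not called. A link between these differences was not tested. Of 7 BMP receptors 5 were tested. Bmpr2 and Acvr1, a type II and a type I receptor, rose in all 3 lines at both times, Acvr1 from 19.5 to 55.5 FPKM in parental cells at 8 h, and Acvr2a fell at both times in all 3, with the shRNA calls at 8 h and the control call at 24 h lost under median-of-ratios scaling. The tested receptors had a median log2 change of 0.08 at 8 h in parental cells, against -0.05 over all genes, with 2 higher and 1 lower.

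Of the Smads that carry the signal, 5 of 6 were tested, and 4 were called higher and 1 lower at 8 h in parental cells, where 22.4% of all genes were called higher and 32.1% lower. The sizes were small: Smad1, which BMPs use, 0.19, Smad5 0.27, Smad4 0.17, Smad3, which TGF-β uses, 0.35, and Smad2 -0.14, a call lost under both scalings. In control cells Smad5 alone was called at 8 h, at 0.20, and Smad1 was called as well with quantile normalization (0.15, adjusted p = 0.030) or median-of-ratios scaling (0.17, adjusted p = 0.023). At 24 h Smad1, Smad5 and Smad3 were higher in parental cells, whereas Smad3 was lower in control cells (37.8 to 27.0 FPKM) and in KD cells (42.0 to 32.3 FPKM). Smad5 was higher in both shRNA lines at that time and Smad1 in control cells. Smad4 in both and Smad2 in KD cells were lower, calls lost under both scalings, and Smad2 turned to 0.0092 with quantile normalization. The list of BMP antagonists and inhibitors, 8 of 12 tested in parental cells, had 5 calls at 8 h, 2 of them lower, and 7 calls at 24 h, 1 of them lower, against 54.5% and 70.5% of all genes called, with medians of 0.04 and 0.52 against -0.05 and -0.02 over all genes. Smad7, an inhibitor that TGF-β itself induces, went from 5.05 to 10.8 FPKM at 8 h in parental cells and from 5.88 to 19.5 in control cells, and Smurf1 and Smurf2, ubiquitin ligases for Smads, rose in all 3 lines at both times. Smad6, the inhibitor that BMPs induce, fell in parental cells at 8 h and 24 h (-0.26 and -0.34), the direction of the Id genes. In control cells it was called lower at both times (-0.32 and -0.34), calls lost under both scalings. In KD cells Smad6 was called lower at 24 h alone (-0.37), a call lost with quantile normalization. At 8 h it was called higher in KD than in control cells. Of the 9 tested there 6 were called higher and none lower, with a median of 0.41 (19.3% of all genes higher). Untreated, Fst, Bmper and Smad7 were called higher in KD cells and none lower (10.6% higher). At 24 h Nog, Grem1, Fst and Bmper were higher and Smurf1 lower (16.8% and 11.5%), with Nog lost under quantile normalization. A link to Bmp4 or the Id genes was not tested. Grem1, a secreted BMP antagonist, went from 0.25 to 0.94 and 8.93 FPKM in control cells and from 0.29 to 0.27 and 1.62 in parental cells.

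All 4 listed repressors that act with Smads rose in parental cells at both times, against 22.4% and 33.4% of all genes called higher. Their median log2 change was 0.94 at 8 h and 1.07 at 24 h. Atf3, known as the Smad3 partner at the Id1 promoter, went from 3.13 to 6.12 and 7.65 FPKM there (0.78 and 1.07, adjusted p = 0.0012 and 0.00012). In control and KD cells Atf3 was not called (-0.01 and -0.18 at 8 h). Ski and Skil, which bind Smads and repress, rose by 1.02 to 1.38 on the log2 scale in every line and time. Tgif1 was called higher in control cells at both times and in KD cells at 24 h. In KD cells at 8 h it was not called (0.22, adjusted p = 0.16), though it was under median-of-ratios scaling. Tgif1 was called lower in KD than in control cells at 8 h. The 3 E proteins, the partners that Id proteins hold, were called higher in parental cells at both times, Tcf3 by 0.14 and 0.28, Tcf4 by 0.30 and 0.77, and Tcf12 by 0.18 and 0.32, against 22.4% and 33.4% of all genes called higher. The summed Id level fell to 30.2% of untreated there at 8 h. In control cells Tcf3 alone was called at 8 h, and Tcf3 and Tcf4 at 24 h, and in KD cells none at 8 h and Tcf3 and Tcf4 at 24 h, while with quantile normalization or median-of-ratios scaling all 3 were called higher at both times in both lines. Tcf3 and Tcf4 were lower in KD than in control cells at each time, by 0.19 to 0.31 on the log2 scale, and the untreated Tcf3 call was lost under that scaling.

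Of 15 tissue-restricted bHLH factors 4 were tested in parental cells and 3 in shRNA cells. Scx rose in all 3 lines, from 30.1 to 62.3 and 77.5 FPKM in parental cells, while Twist2 (9.24 to 3.80 and 3.96) and Atoh8 (3.19 to 1.00 and 1.59) fell. Twist1 was at most 1.41 FPKM in any group and was not called. Among the repressors of the Hes, Hey and Bhlhe kind, Bhlhe40 went from 17.3 to 74.6 FPKM at 8 h in parental cells and from 11.6 to 103 in control cells, the largest rise among the listed bHLH genes tested at that time. Of the 5 tested it alone was called higher then. Hes6 and Hey1 were called lower in all 3 lines, Bhlhe41 in control and KD cells and Hes1 in KD cells. In all genes 32.1%, 44.9% and 44.8% were called lower in parental, control and KD cells. The list medians were -0.07, -0.33 and -0.46. The Hes1 call was lost under both scalings and the control Bhlhe41 call with quantile normalization. Of 7 CDK inhibitors, which halt the cell cycle and of which E proteins raise some, 6 were tested. Cdkn2b rose at both times, while Cdkn1b, Cdkn2c and Cdkn2d fell in all 3 lines. Cdkn1a was lower at 24 h in parental cells, at 62.0 against 87.5 FPKM, and at 8 h (-0.16). It was called lower in control cells at 24 h and in KD cells at both times. The control call was lost under both scalings, and the parental and KD calls at 8 h under median-of-ratios scaling. At 24 h 2 of the list were called higher in each line, Cdkn2b and Cdkn2a. Cdkn2a was also called higher at 8 h in control cells, and in KD cells under both scalings.

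**Figure D4:**
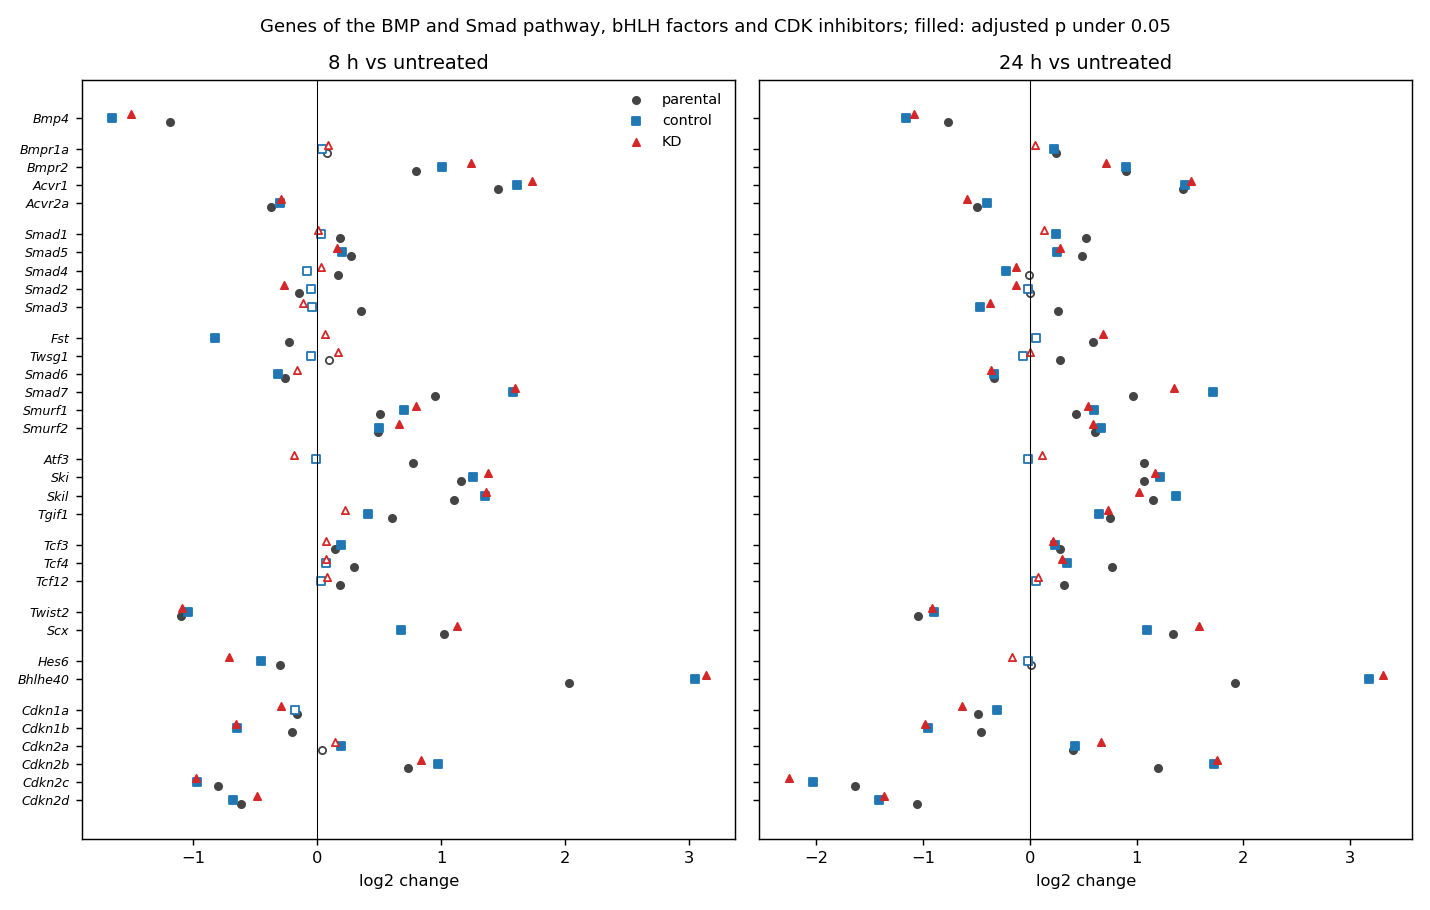
Log2 change at 8 h (left) and 24 h (right) of TGF-β against untreated (x axis) for the listed genes called in parental cells with a mean of at least 5 FPKM there, in the order ligand, receptors, Smads, inhibitors, repressors, E proteins, other bHLH factors and CDK inhibitors. Bmp4 lies below 0 and Bmpr2, Acvr1, Smad7, Ski and Skil above 0 in all 3 lines, and parental Atf3 stands apart from control and KD.

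The genes whose pattern was most like each member were ranked among 8708 genes by the smaller of 2 Pearson correlations of log2(FPKM + 1), over the 6 parental and over the 12 shRNA libraries. The libraries share treatment times, so these values describe a likeness of shape and carry no test. For Id1 they were the CDK inhibitor Cdkn2c (0.992), Hook1 (0.986) and Cdx2 (0.986), which, like Id1, stepped down from untreated to 8 h to 24 h. Cdkn2c had means of 19.2, 10.6 and 5.49 FPKM in parental cells. For Id2 they were Tmx2 (0.992), Tspan4 (0.991) and the chemokine gene Cx3cl1 (0.991), low at both times. Cx3cl1 was 7.50, 1.62 and 2.13 FPKM in control cells. For Id3 they were Amacr (0.955), Nmt2 (0.952) and Drap1 (0.950), low at 8 h with partial recovery and far smaller in size, as for Drap1 with 176, 155 and 174 FPKM in parental cells. Among the members Id1 and Id2 had r = 0.806 in parental and 0.716 in shRNA libraries, Id2 and Id3 0.578 and 0.873, and Id1 and Id3 0.0028 and 0.403.

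In mm9 Id1 lies at chr2:152561987-152563146 on the plus strand, Id2 at chr12:25778666-25780957 on the minus strand, Id3 at chr4:135699412-135701670 on the plus strand and Id4 at chr13:48356796-48359405 on the plus strand. Lamin B1 and ATAC peaks were read at these loci with their scores, which begin at 50 in each list. The median score was 69.8, 79.42 and 83.25 for lamin B1 and 93.06, 73.85 and 155.2 for ATAC at untreated, 8 h and 24 h. Scores of different times are therefore not directly comparable. The lists held 4645, 10484 and 7083 lamin B1 peaks and 9782, 10340 and 33811 ATAC peaks at untreated, 8 h and 24 h, so a peak is easier to meet at 8 h for lamin B1 and at 24 h for ATAC. With 1 library per time, a peak missing at a time is a peak that was not listed.

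A lamin B1 peak overlapped the 500 bp on each side of the start in 2 of 4 Id genes untreated (15.0% of 22367 protein-coding genes), 3 of 4 at 8 h (29.5%) and 2 of 4 at 24 h (23.2%). Counting from 2500 bp upstream to the end of the gene, the Id counts were the same, against 19.3%, 37.6% and 28.7%. In the 500 bp around the start an ATAC peak was listed for 1 Id gene untreated (29.8%), 3 at 8 h (24.3%) and 4 at 24 h (45.8%).

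The Id1 start was under a lamin B1 peak at all 3 times, at chr2:152561774-152563031 untreated with a score of 60.8 and with scores of 81.6 at 8 h and 81.7 at 24 h. The same start was in an ATAC peak at all 3 times, with scores of 102, 52.2 and 346. Of the ATAC list of each time 42.8%, 94.7% and 17.6% scored higher, and of the lamin B1 list 67.7%, 47.7% and 51.5%. The peaks cover part of the exonic sequence of the gene. ATAC and lamin B1 peaks shared 637 to 805 bp there, while Id1 RNA fell at each step. Further peaks began 4762 to 4929 bp downstream of the start (ATAC, at all times) and ended 11698 and 11705 bp upstream (lamin B1, at 8 h and 24 h).

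No lamin B1 peak touched Id2 at any time, the member with the deepest fall. The nearest, which overlapped no annotated gene, ended 4450 bp upstream at 8 h (chr12:25785407-25786268, score 77.7) and 4504 bp upstream at 24 h (score 97.1), and none was listed within 25000 bp untreated. The Id2 start had no ATAC peak untreated, when Id2 RNA was highest. ATAC peaks stood there at 8 h (score 54.97, with 88.1% of that list higher) and 24 h (score 87.7, 74.4% higher), when Id2 RNA was low. Both covered all 250 bases of the promoter printed above.

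At Id3 the lamin B1 peak was present at 8 h alone, at chr4:135699432-135701284. It spanned 1853 bp of the gene body from 20 bp inside the GENCODE start. It covered all 250 bases before the RefSeq start, the 30 printed ones among them. Its score was 148, and 13.2% of the peaks of that time scored higher. That is the time at which Id3 RNA was lowest in all 3 lines. At 24 h, with Id3 back at 71.4 and 75.4 FPKM in parental cells, the nearest lamin B1 peak ended 7873 bp upstream of the start and an ATAC peak with a score of 101 covered the start. Of that ATAC list 68.2% scored higher. No ATAC peak was listed at the Id3 start untreated or at 8 h.

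The GENCODE start of Id4, at most 0.224 FPKM, was under a lamin B1 peak at all 3 times (scores 93.1, 95.3 and 71.0). ATAC peaks were listed there at 8 h (82.4, ending 106 bp before that start) and 24 h. Of the 250 promoter bases printed above, lamin B1 peaks covered 158 untreated, 161 at 8 h and 0 at 24 h. ATAC peaks covered 0 of them untreated and all 250 at 8 h and 24 h. The ATAC peak at 24 h had a score of 455, the highest at any Id start, and 8.3% of that list scored higher. For the ATAC peak at 8 h that share was 38.1%, and for the lamin B1 peaks 24.0%, 35.6% and 63.1% at the 3 times. In untreated parental cells, then, a lamin B1 peak was listed at the starts of Id4, at 0.153 ± 0.101 FPKM, and Id1, at 239 ± 25.6, and not at that of Id2, at 221 ± 4.71.

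**Figure D5:**
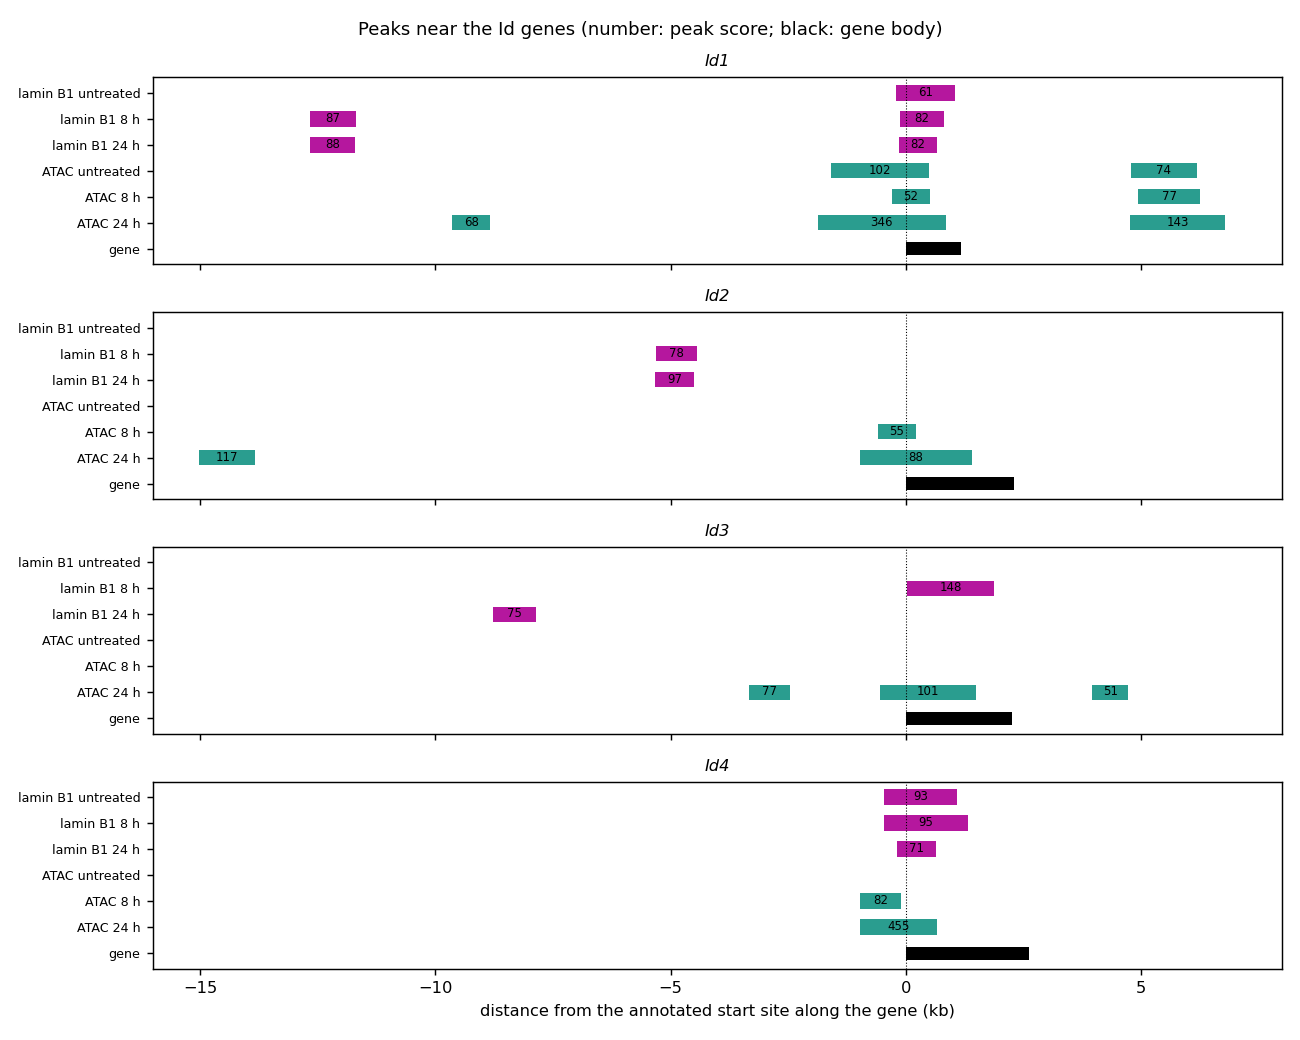
Lamin B1 and ATAC peaks (bars, with their scores) at each time against distance from the annotated start in kb, one panel for each Id gene, with the gene body in black. Id1 and Id4 carry a lamin B1 bar over the start at all 3 times, Id3 at 8 h alone and Id2 at none, and ATAC bars stand over all 4 starts at 24 h.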

How the data were processed

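NMuMG RNA-seq (18 libraries), lamin B1 ChIP-seq and ATAC-seq (6 libraries) were used, and Hi-C was not analysed here. The authors deposited gene FPKM values in 2 tables without header lines, whose columns were assigned from the order the labels give, parental columns to groups without a replicate number. The submitters' processing notes name Bowtie, TopHat, Cufflinks and mm9. The peak lists deposited by the authors hold a score for each peak, whose scale is not given in the sources used here. In ChIP-seq 2 parallel ChIPs were mixed into 1 library. Read depth is unknown: the most frequent ratio of low FPKM values between libraries was shared by 7 to 176 of 2696 to 3246 genes, too few to read a depth from. Replicates were biological per the study's methods.

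Genes that reached 1 FPKM in 2 or more libraries of their table entered the test, made on log2(FPKM + 1) with limma 3.58.1 (R 4.3.3; trend, two-sided, all libraries of a table in 1 fit, Benjamini-Hochberg over all genes of a contrast, called at adjusted p under 0.05). Changes are on that scale and understate those of low genes. The script was tested on simulated data with 200 changed genes: for parental cells at 8 h (11309 genes) 94% of log2 changes of 1 and 72% of 0.5 were recovered, with 7 false among 173 calls. For KD against control at 8 h (11450 genes) the values were 92%, 75% and 8 of 175. The simulated noise was independent between genes, with no shift of the median, whereas 54.5% and 35.8% of genes were called in the real comparisons. These rates check the script and are not error rates for the real data. Loci came from GENCODE M1 on mm9, and promoter sequences from RefSeq (GRCm38.p6; 3 of 4 members matched).

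The members and gene lists were chosen with earlier results of these data known. Genes named with values are the members, the listed genes called in parental cells at 8 h or 24 h with a group mean of at least 5 FPKM, any listed gene a count of 5 or fewer refers to, Lmnb1, and the 3 genes most like each member.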

Additional observations from a re-analysis of the deposited data

How the results depend on the processing

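The alternatives were a constant of 0.1, no filter, quantile normalization, median-of-ratios scaling, no trend, only the groups compared and each library left out, with a replicate block for the shRNA cells. Of 306 values for the TGF-β responses 302 kept their direction and call, of 108 for KD against control 86 did, and of 96 for the difference in response 89 did, and the cause of the changes was not tested. For KD against control, Id genes called at 24 h fell from 2 to 1 with no filter, quantile normalization, median-of-ratios scaling, no trend and only the groups compared, where the Id2 change was 0.27, 0.23, 0.24, 0.27 and 0.27 and no longer called. At 8 h the count fell from 2 to 1 with no filter (Id3 -0.32). With only the groups compared Id1 was called at 8 h (0.21), as was its difference in response (0.25, count 1). Id4, which entered with no filter alone, was called in KD cells between 8 h and 24 h (-0.16, adjusted p = 0.041) and in no other comparison. Id1 untreated turned to 0.00013 with quantile normalization. With the replicate block the Id2 change at 24 h was 0.27 and 0.24 with scaling as well, not called, so 1 Id gene was called, and the block changed no other Id call. The replicate numbers did not pair the samples: over 15 pairs of groups r was -0.135 to 0.368, 2 of them above 0.1.

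Leaving out 1 library gave ranges. The Id2 change in KD was 0.36 to 0.40 untreated, with the call lost in most of these fits, and 0.11 to 0.42 at 24 h. That of Id3 was -0.46 to -0.090 untreated and -0.37 to -0.27 at 8 h, and that of Id1 at 24 h was -0.54 to -0.073. Id genes called in KD against control were 0 to 1 untreated, 1 in every such fit at 8 h and 1 to 2 at 24 h. The difference in response was -0.23 to 0.14 for Id3 at 8 h, and at 24 h -0.49 to -0.029 for Id1, -0.27 to 0.037 for Id2 and -0.51 to -0.14 for Id3, with counts of 0 to 2. Id3 at 24 h in parental cells was -0.24 to 0.0037, and Id2 from 8 h to 24 h -0.21 to 0.42. All genes called also moved, for KD against control from 2254 untreated to 650 without the first KD library and 1109 with only the groups compared, and from 3241 at 24 h to 909 with only the groups compared.

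Lamin B1 peaks were counted at 7 Id genes and times and ATAC peaks at 8. With higher-scoring peaks alone the counts were 4 for lamin B1 in either window and 4 for ATAC, and with the peak centre inside the window the ATAC count was 5. Depth is unknown, so no limit of detection can be given for Id4.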
